A study of Mus musculus with 2 samples.

Results

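Kinesins are motor proteins that use ATP to move along microtubules or to take microtubules apart, and their genes carry the symbol Kif in the mouse. One class builds the mitotic spindle, moves chromosomes and closes the cleavage furrow, so it is known for its work in dividing cells. Another carries vesicles, mitochondria and protein complexes along axons and dendrites, and others serve the cilium. The hindbrain at this stage holds both kinds of user, dividing progenitors of the ventricular layer and newly born neurons that send out axons.

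The members were the protein-coding genes of the GENCODE mouse annotation whose symbol is Kif followed by a digit, which gave 39 of 21707 protein-coding genes. They were sorted by known role into 12 mitotic genes (Kif2b, Kif2c, Kif4, Kif11, Kif14, Kif15, Kif18a, Kif18b, Kif20a, Kif20b, Kif22, Kif23) and 13 neuronal transport genes (Kif1a, Kif1b, Kif3a, Kif3b, Kif3c, Kif5a, Kif5b, Kif5c, Kif13a, Kif13b, Kif17, Kif21a, Kif21b). A further 6 act at the cilium (Kif6, Kif7, Kif9, Kif19a, Kif24, Kif27) and 7 have other roles (Kif1c, Kif2a, Kif12, Kif16b, Kif26a, Kif26b, Kif28). The last, Kif1bp, fits the symbol but encodes a kinesin-binding protein and no motor. Several genes work in more than 1 class, as Kif3a and Kif3b also drive transport in the cilium, and each gene was counted once.

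Open chromatin was mapped by DNase-seq, in which the enzyme DNase I is let into nuclei, cuts the DNA it can reach, and the ends it leaves are read by sequencing. The samples were 2 biological replicates of 1 group, hindbrain of healthy, untreated mouse embryos of the strain B6NCrl at embryonic day 11.5, with male and female embryos pooled in each. No second tissue, stage or genotype stands beside them, so every comparison below is between genes within these libraries and carries no test. The authors called 150 bp peaks in each replicate and gave each a height, a whole-number signal of unstated scale. The analysed peaks numbered 150176 in replicate 1, with a median height of 36, and 194873 in replicate 2, with a median height of 50. Heights in one replicate are therefore not comparable in size with those in the other, and ranks are given as percentiles among all peaks of the same library. Read depth is unknown. In a dissected tissue, fewer cells with an open site and a less open site in each cell cannot be told apart.

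The tissue label was set against marker promoters. All 10 neural progenitor and all 10 neuron markers had a promoter peak shared by both replicates, while 2 of 8 blood and 1 of 6 muscle markers did, and 66.0% of all protein-coding genes. CpG content at the start, which moves with promoter peaks, differed between these lists: 9 progenitor, 6 neuron, 0 blood and 0 muscle markers had an observed to expected CpG ratio of at least 0.6. Its part in the counts was not tested. Of 15 hindbrain markers, 10 had a shared promoter peak (66.7%), a share at the level of all genes. In replicate 2 alone 14 had one, and Hoxa3 had none in either replicate. Promoter peaks of these lists therefore do little to check the label.

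A promoter peak lay within 1 kb of an annotated coding start, and a shared one overlapped between the replicates. Shared promoter peaks were present at 36 of the 39 kinesin genes (92.3%, exact Clopper-Pearson 95% interval 79.1 to 98.4), against 66.0% of all protein-coding genes. The mitotic genes had one in 11 of 12 cases (91.7%, interval 61.5 to 99.8) and the neuronal transport genes in 13 of 13 (100%, interval 75.3 to 100). The genes without one were Kif14, Kif12 and Kif28, which had no promoter peak in either replicate. These intervals cover counting error only.

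CpG content at the start moved with this count. The ratio of observed to expected CpG in 1001 bp around the start (the highest over a gene's starts) had a median of 0.740 in the kinesin genes, against 0.607 in all protein-coding genes. Among genes with a ratio of at least 0.6, 34 of 34 kinesin genes had a shared promoter peak, against 97.5% of all such genes, a share near that background. Below 0.6 the peak was present at 2 of 5 kinesin genes, Kif19a and Kif2b, against 33.5% of all such genes. The part of CpG content in the overall count was not tested.

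The peaks were high in their libraries. The highest promoter peak of a kinesin gene had a median height of 104 in replicate 1 and 130 in replicate 2, against 100 and 127 over all genes with a promoter peak. As mean percentile over both replicates the kinesin median was 96.0 and that of all such genes 95.3, so kinesin promoters stood close to the middle of open promoters. Kif23, Kif24 and Kif21b ranked highest, and Kif2b, Kif5a and Kif26b lowest.

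**Figure D1:**
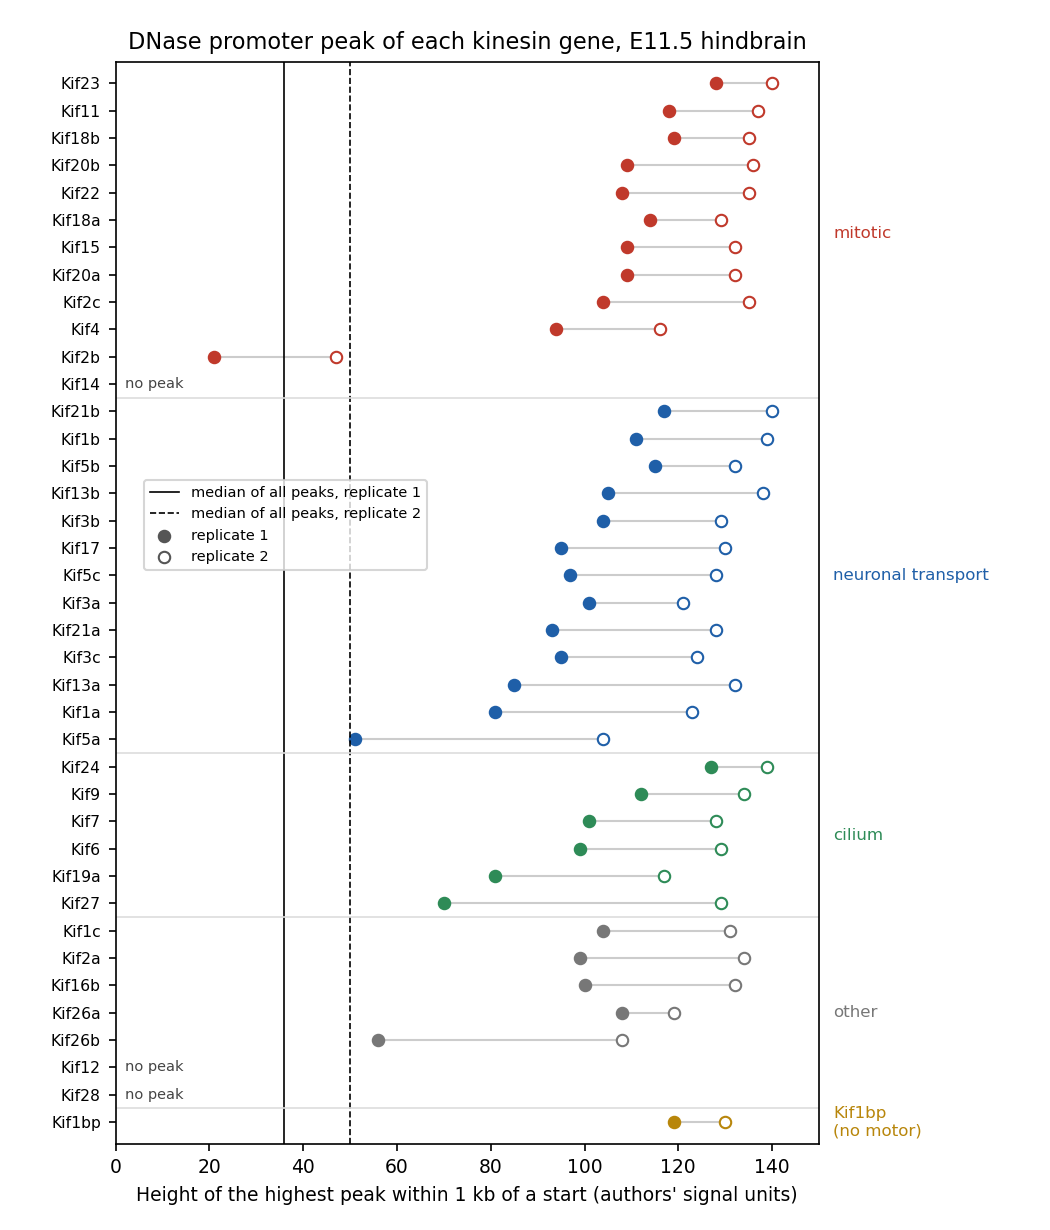
Height of the highest peak within 1 kb of a start for each of the 39 kinesin genes, in the authors' signal units on a linear axis, with filled points for replicate 1, open points for replicate 2 and vertical lines at the median height of all peaks of each library (36 and 50). Most genes of every class lie far above both lines, Kif2b lies at 21 and 47, and Kif14, Kif12 and Kif28 have no point.

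Among the mitotic genes, the strongest promoter was that of Kif23, the motor of centralspindlin, which bundles microtubules in the cleavage furrow, with heights of 128 in replicate 1 and 140 in replicate 2. Kif11, which slides spindle microtubules apart so that the poles separate, had 118 and 137. Kif15, which can share that task, had 109 and 132. Kif18b and Kif18a, which shorten or hold in check the plus ends of microtubules, had 119 and 135 for Kif18b and 114 and 129 for Kif18a. All 5 of these promoters ranked at or above a mean percentile of 97.0.

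Kif20a, which brings the chromosomal passenger complex to the spindle midzone, had 109 and 132, and its relative Kif20b, which acts in cytokinesis, had 109 and 136. Kif22 and Kif4, motors that bind chromosome arms, had 108 and 135 for Kif22 and 94 and 116 for Kif4, and Kif4 ranked at a mean percentile of 93.0. The microtubule depolymerase Kif2c had 104 and 135. Its relative Kif2b stood apart from every other mitotic gene with a peak, at 21 and 47. In replicate 1 its highest peak was centred 508 bp inside the gene, in a hotspot (a wider region of raised cutting) 73 bp wide with a −log10 false discovery rate of 1.85. In replicate 2 the highest peak covered the start, and the site shared by both replicates was the downstream one.

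Kif14, a cytokinesis motor, had no peak within 1 kb of its coding starts, yet a strong one a little farther out. A peak at chr1:136466216-136466365 had a height of 115 in replicate 1 (percentile 97.9) and 138 in replicate 2 (percentile 99.1). Its edge lay 1570 bp before the first coding start at position 136467935. It covered position 136466343, where the annotation starts a Kif14 transcript with a retained intron and no coding sequence. With a window of 2500 bp, or with the 5′ end of the gene as its only start, all 12 mitotic genes had a shared promoter peak.

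Among the neuronal transport genes, Kif21b, a motor that also limits microtubule growth, had the highest promoter at 117 in replicate 1 and 140 in replicate 2, and its relative Kif21a had 93 and 128. Kif1b, which carries mitochondria and vesicles, had 111 and 139. Kif1a, which carries synaptic vesicle precursors in axons, had 81 and 123, the second lowest mean percentile of its class at 91.6. The heavy chains of conventional kinesin differed among themselves. Kif5b, which most cell types use, had 115 and 132, Kif5c had 97 and 128, and the neuron-enriched Kif5a had 51 and 104, the lowest of the class in both replicates.

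The subunits of heterotrimeric kinesin lay close together, with 101 and 121 for Kif3a, 104 and 129 for Kif3b and 95 and 124 for Kif3c. Kif13b and Kif13a, carriers of endosomal and membrane cargo, had 105 and 138 for Kif13b and 85 and 132 for Kif13a. Kif17, which carries receptor vesicles in dendrites, had 95 and 130. No gene of the class lacked a promoter peak, and its lowest height was above the library median in both replicates.

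Set side by side, the classes overlapped. The median height was 109 in replicate 1 and 135 in replicate 2 for the mitotic genes with a peak, and 97 and 129 for the neuronal transport genes. The median of the mean percentiles was 97.1 for the mitotic and 95.0 for the neuronal transport genes, a difference of 2.14 points. By class means the sign turned, with 91.1 for the mitotic and 94.3 for the neuronal transport genes, a difference of -3.15. Without Kif2b, a repeat chosen after seeing the data, the mean difference was 3.01 and the median difference 2.24. The sign of the mean difference thus rested on the single gene Kif2b, while the median difference was positive with and without it.

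The cilium genes ranged in mean percentile from 89.6 at Kif27 to 99.6 at Kif24. Kif24, a centriolar motor that restrains cilium assembly, had 127 in replicate 1 and 139 in replicate 2. At the other end, Kif27 had 70 and 129 and Kif19a, which limits the length of motile cilia, 81 and 117. Kif7, a regulator of hedgehog signalling at the cilium tip, had 101 and 128. Among the other genes, Kif26b, an atypical motor known from kidney development, was low at 56 and 108, while its relative Kif26a had 108 and 119. Kif1bp had 119 and 130.

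Position and width were described next. The highest promoter peak covered the start itself in 17 of 36 genes in replicate 1 and 23 of 36 in replicate 2. Its centre lay at a median of -65.5 bp and -59 bp from the nearest start, that is just upstream. The outermost was at Kif26a, centred at -838 bp and -818 bp. Cover of the start and place of the centre were not measured over all genes, so these values have no background here. The hotspot around the peak had the top deposited value of 100 in 35 of 36 genes in replicate 1 and 36 of 36 in replicate 2, against 88.7% and 93.4% of all genes with a promoter peak. Hotspots over 2 kb held 1 kinesin promoter in replicate 1 and 11 in replicate 2, against 5.73% and 30.2% of those genes. In replicate 2 these were 1 of 11 mitotic promoters, Kif11, and 7 of 13 neuronal transport promoters (Kif1a, Kif1b, Kif3c, Kif5c, Kif13a, Kif21a, Kif21b). The median hotspot width there was 1347 bp for the mitotic and 2127 bp for the neuronal transport promoters. In replicate 1 the class medians were 1024 bp and 1149 bp, and 0 of 11 and 1 of 13 were over 2 kb. The difference in width was thus mainly seen in replicate 2.

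Most annotated starts of the kinesin genes were open. Of 77 starts, 66 had a peak within 1 kb in both replicates (65.1% of all 41264 coding starts did). Apart from the 3 genes with none, the exceptions were internal starts of Kif2c, Kif3c, Kif27, Kif2a and Kif1a. The internal Kif1a start at position 93082421 of chromosome 1 had a peak of height 26 in replicate 1 alone.

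A start on the opposite strand lay within 1 kb of 6 of 39 kinesin genes (15.4%), against 10.5% of all protein-coding genes. At these the promoter peak belongs to both genes by position. In the mitotic class the pairs were Kif20a with Brd8 at 12 bp, Kif15 with 1110059G10Rik at 46 bp and Kif4 with Pdzd11 at 198 bp. The neuronal transport class had 0 of 13. The others were Kif9 with Klhl18, Kif24 with Nudt2 and Kif1c with Inca1.

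The promoter sequences were then read, because mitotic genes are known for a pair of short elements. The CHR (cell cycle genes homology region) is bound by complexes that silence such genes in resting cells and activate them before division, and the CCAAT box is bound by NF-Y. RefSeq promoter windows, from 250 bases before to 50 after a start, matched 31 of 39 members by symbol with 35 windows. The CHR was searched as TTTGAA or TTCGAA, the CCAAT box as CCAAT, the GC box as GGGCGG and the E2F site as TTTGGCGC or TTTCCCGC, each on both strands, and no motif contains another. The stretches below show 6 mitotic promoters with a CHR match and 3 neuronal transport promoters with none (build GRCm38.p6, the assembly of mm10, sequence from RefSeq). The first 120 bases lie before the RefSeq start and the last 30 run from it. Capitals mark CHR and CCAAT matches.
Kif11 (chr19:37376262-37376411, plus strand): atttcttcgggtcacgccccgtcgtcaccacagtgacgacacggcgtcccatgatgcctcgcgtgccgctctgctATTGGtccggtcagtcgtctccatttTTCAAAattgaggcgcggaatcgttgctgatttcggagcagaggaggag
Kif15 (chr9:122950961-122951110, plus strand): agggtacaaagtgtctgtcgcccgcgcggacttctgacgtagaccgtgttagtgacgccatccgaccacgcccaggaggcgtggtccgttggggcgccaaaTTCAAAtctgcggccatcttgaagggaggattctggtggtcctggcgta
Kif18b (chr11:102925095-102925244, minus strand): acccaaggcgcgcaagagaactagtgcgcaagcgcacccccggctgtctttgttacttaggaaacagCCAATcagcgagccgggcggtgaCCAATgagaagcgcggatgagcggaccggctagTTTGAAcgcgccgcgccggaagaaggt
Kif20b (chr19:34922238-34922387, plus strand): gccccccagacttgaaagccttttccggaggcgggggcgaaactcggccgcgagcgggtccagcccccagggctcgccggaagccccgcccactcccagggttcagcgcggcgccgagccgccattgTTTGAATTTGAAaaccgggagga
Kif22 (chr7:127042391-127042540, minus strand): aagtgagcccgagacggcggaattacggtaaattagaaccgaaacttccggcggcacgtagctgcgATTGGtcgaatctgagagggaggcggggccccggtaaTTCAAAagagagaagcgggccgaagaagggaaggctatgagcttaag
Kif23 (chr9:61946770-61946919, minus strand): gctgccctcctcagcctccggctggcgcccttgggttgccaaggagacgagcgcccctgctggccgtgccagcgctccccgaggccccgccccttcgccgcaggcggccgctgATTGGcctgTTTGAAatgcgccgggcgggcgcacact
Kif5c (chr2:49619166-49619315, plus strand): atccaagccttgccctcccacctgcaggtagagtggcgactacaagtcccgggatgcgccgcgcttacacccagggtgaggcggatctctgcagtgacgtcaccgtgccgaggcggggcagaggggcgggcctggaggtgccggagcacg
Kif3b (chr2:153291296-153291445, plus strand): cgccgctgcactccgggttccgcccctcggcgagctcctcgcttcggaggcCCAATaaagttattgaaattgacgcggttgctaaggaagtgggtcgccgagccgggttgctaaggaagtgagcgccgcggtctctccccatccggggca
Kif1a (chr1:93101845-93101994, minus strand): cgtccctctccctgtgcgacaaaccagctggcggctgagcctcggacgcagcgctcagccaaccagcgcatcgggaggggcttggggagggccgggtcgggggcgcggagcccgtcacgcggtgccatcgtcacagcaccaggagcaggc
The upstream peak of Kif14 is shown in the same way, on the strand of the gene, over its 150 bases.
Kif14 (chr1:136466216-136466365, plus strand): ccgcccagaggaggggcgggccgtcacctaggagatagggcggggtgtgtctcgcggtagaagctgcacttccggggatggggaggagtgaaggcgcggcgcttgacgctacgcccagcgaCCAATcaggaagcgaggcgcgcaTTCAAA

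The match lay close to the RefSeq start in all 6 mitotic promoters shown, at bases 102 to 107 of the stretch in Kif11 and Kif15 and at bases 128 to 139 in Kif20b, where 2 copies stand in tandem. A CCAAT match stood upstream of the CHR in Kif11, Kif18b, Kif22 and Kif23. The nearest pair was 21 bases apart in Kif11, 28 in Kif18b, 32 in Kif22 and 4 in Kif23. The Kif14 peak carried the same order, a CCAAT match at bases 122 to 126 and a CHR match at bases 145 to 150, with 18 bases between them. Of the 3 neuronal transport stretches, Kif3b held a CCAAT match and Kif5c and Kif1a neither motif. A match is a description of the letters and not a site in use.

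Counted over genes whose RefSeq window overlapped a shared DNase site, a CHR match was present in 7 of 8 mitotic genes and 0 of 9 neuronal transport genes, against 13.6% of 12180 RefSeq genes with such a window. The mitotic genes were Kif4, Kif11, Kif15, Kif18b, Kif20b, Kif22 and Kif23, and the one without was Kif18a. In the cilium class Kif24 had a match (1 of 4), and among the other genes Kif26b (1 of 5). Over all windows, open or not, the counts were 9 of 11 mitotic and 1 of 9 neuronal transport genes, against 21.7% of RefSeq genes. The matches in Kif2c, Kif14 and Kif1a then added fell in windows without a shared peak. The only Kif2c window lay at an internal start, so the open Kif2c promoter was not read in these counts. Kif20a, Kif5a, Kif5b, Kif13b and Kif21b had no RefSeq window, and their open promoters were left out as well. CCAAT matches were present in 5 of 8 mitotic and 3 of 9 neuronal transport genes at a shared site, against 40.5%. GC boxes were present in 6 of 8 and 7 of 9, against 68.7%. E2F matches were found in 2 of 8 mitotic genes, Kif15 and Kif18a, and 0 of 9 neuronal transport genes, against 3.21%.

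**Figure D2:**
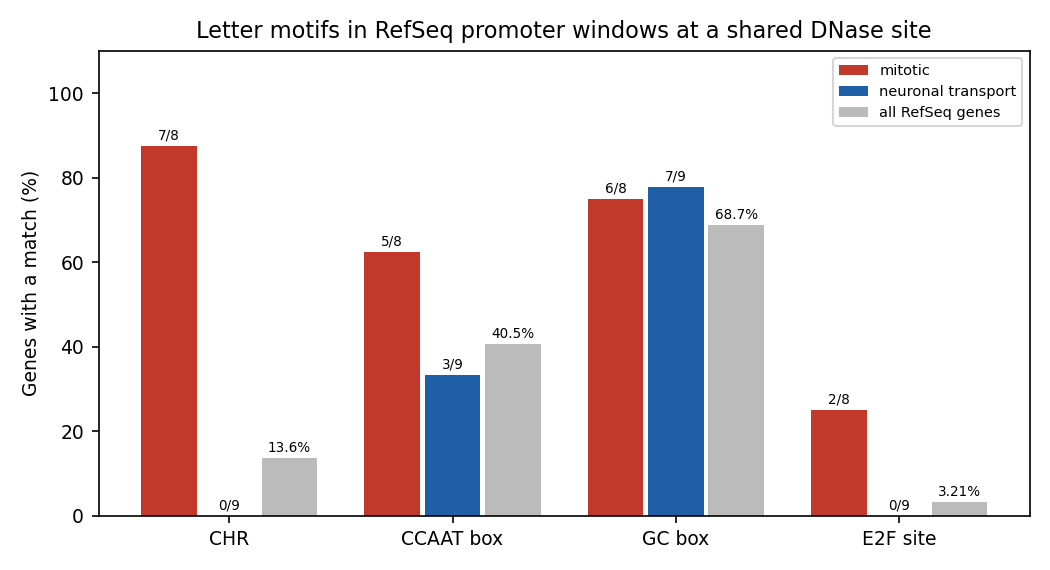
Share of genes, in percent on an axis from 0, whose RefSeq promoter window at a shared DNase site holds each letter motif, for mitotic genes, neuronal transport genes and all RefSeq genes with such a window. CHR matches were present in 7 of 8 mitotic and 0 of 9 neuronal transport genes, while GC boxes were frequent in all 3 sets.

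Within the 150 bp of the highest peak itself the CHR count was smaller. In replicate 1 a match lay inside the peak in 3 of 11 mitotic genes (Kif15, Kif22, Kif23) and 1 of 13 neuronal transport genes (Kif21a), against 4.75% of all genes with a promoter peak. In replicate 2 it lay there in 4 of 11 mitotic genes, now with Kif18b, and 0 of 13 neuronal transport genes, against 4.31%. CCAAT matches lay inside the peak of 7 of 11 mitotic genes in each replicate, against 29.2% and 25.8% of all genes. In the neuronal transport class the same count was 5 of 13 in replicate 1 and 4 of 13 in replicate 2. Kif11 is an example of the difference, with its CCAAT match inside the peak of both replicates and its CHR match beyond the downstream edge.

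The mitotic and neuronal transport genes also differed in their distal sites, with overlapping ranges. A distal site was a shared peak over 1 kb from every coding start and at most 100 kb from the nearest, and was assigned to that nearest gene, which is a rule of position and does not show that the site acts on the gene. The kinesin genes had a mean of 3.54 ± 4.59 such sites per gene (SD over 39 genes, median 2), while all protein-coding genes had a mean of 2.54 and a median of 1. Genes with a CpG ratio of at least 0.6, a range that held 34 of the 39 kinesin genes, had a mean of 3.31 and a median of 2. The kinesin values stood near that background. At least 1 was assigned to 24 of 39, against 64.0% of all genes, a share near that of all genes. Among genes with a CpG ratio of at least 0.6 it was 8202 of 11014, a higher share than in the kinesin genes. The mitotic genes had a mean of 1.17 and a median of 0, and the neuronal transport genes a mean of 5.46 and a median of 4. The cilium genes had a mean of 0.667 and a median of 0, and the genes with other roles a mean of 7 and a median of 8. Neither the low nor the high level was thus particular to the mitotic or the neuronal transport class. Sites were present at 4 of 12 mitotic genes, 14 sites in all, and at 12 of 13 neuronal transport genes, 71 sites in all. The ranges overlapped, as Kif2c had 7 sites and Kif3b 0.

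The territory closer to a gene than to any other within the limit was shorter for the mitotic genes, with a median of 40.0 kb against 78.0 kb for the neuronal transport genes. Pooled over each class, the density was 1.91 sites per 100 kb in the mitotic and 5.45 in the neuronal transport class, against 3.66 over all protein-coding genes. The cilium class had 1.23 and the genes with other roles 5.30. Single genes weigh on the mitotic value in both directions. Kif2b had the longest mitotic territory, 198 kb, with 0 sites, and Kif2c the highest mitotic density, 15.3 per 100 kb. Gene length moved the same way, with medians of 38.2 kb and 51.5 kb, and its part in the difference was not tested.

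**Figure D3:**
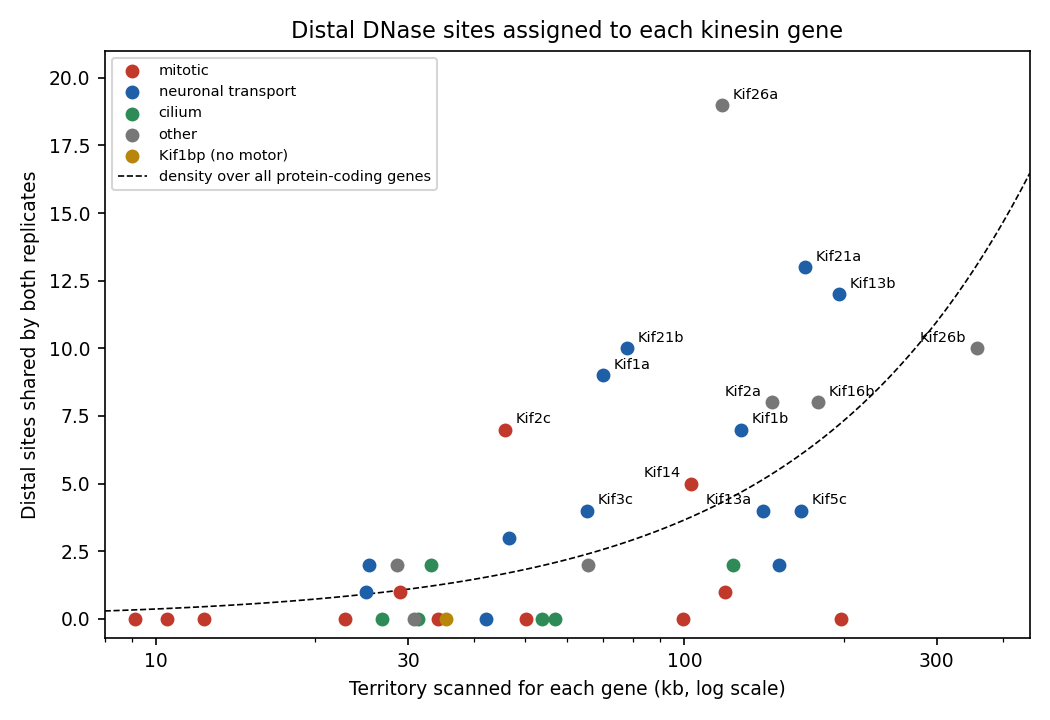
Number of distal sites shared by both replicates, on a linear axis, against the territory scanned for each gene in kb on a log axis, with 1 point per kinesin gene and a dashed line at the density over all protein-coding genes (3.66 per 100 kb). Kif26a, Kif21a, Kif13b, Kif21b and Kif1a lie above the line, as do the mitotic genes Kif2c and Kif14 and some further genes. The mitotic genes at 0 number 8 of 12.

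The mitotic sites were few in kind. All 7 sites assigned to Kif2c lay 6937 to 28157 bp upstream of it, each within 1 kb of the annotated start of a small nuclear RNA gene (Gm25099, Gm23143 or Gm23287), with heights up to 97 in replicate 1 and 100 in replicate 2. Of the 5 assigned to Kif14, 1 was the upstream peak described above, and the next highest lay 57118 bp inside the gene with 69 and 93. Kif23 had a single site 1342 bp upstream of its start with 90 and 118, and Kif20b a single site with 66 and 81. The other 8 mitotic genes (Kif2b, Kif4, Kif11, Kif15, Kif18a, Kif18b, Kif20a, Kif22) had none. Leaving out sites within 1 kb of another annotated start, a count chosen after seeing the data, left 6 mitotic and 62 neuronal transport sites, with means of 0.50 and 4.77 per gene.

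The neuronal transport sites lay mostly inside the genes, with 63.4% of 71 in the gene's own body, against 21.4% of 14 for the mitotic genes and 42.2% of all distal sites. The mitotic share rested on few genes, as 7 of the 14 sites were those of Kif2c, all between genes. The 3 inside a gene were all at Kif14. Kif21a had 13 sites. The strongest lay in an intron at chr15:91018616-91018805 with 105 in replicate 1 and 114 in replicate 2, and neighbours within the same intronic group had 86 and 96, and 78 and 94. Kif21b had 10 sites, 8 of them in its introns. The highest, at 85 and 107, lay within 1 kb of another annotated Kif21b start. The other 2 sites lay inside Cacna1s, each within 1 kb of an annotated start of Cacna1s or Gm37759. Kif13b had 12 sites, all upstream and between genes. Of these, 4 lay within 1 kb of a start of Mir124a-1hg, the host transcript of the neuronal microRNA miR-124, so the nearest coding gene is not the nearest annotated gene there. Their heights reached 60 in replicate 1 and 111 in replicate 2.

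Kif1a had 9 sites. One of them was the highest distal site of any kinesin gene by mean percentile (98.5), with the upstream peak of Kif14 at the same rounded value. It lay 13225 bp upstream of Kif1a between genes, at chr1:93115176-93115345, with heights of 119 in replicate 1 and 135 in replicate 2. These heights exceeded those of the Kif1a promoter itself, at 81 and 123. The other Kif1a sites had between 21 and 46 in replicate 1. Kif1b had 7 sites, 6 of them in its own body, and some of these lay within 1 kb of another annotated Kif1b start. Kif3c, Kif5c and Kif13a had 4 each, Kif3a had 3, Kif5a and Kif5b had 2 each and Kif17 had 1. The strongest Kif5a site lay 6755 bp inside the gene with 68 and 88, higher in replicate 1 and lower in replicate 2 than the Kif5a promoter at 51 and 104.

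**Figure D4:**
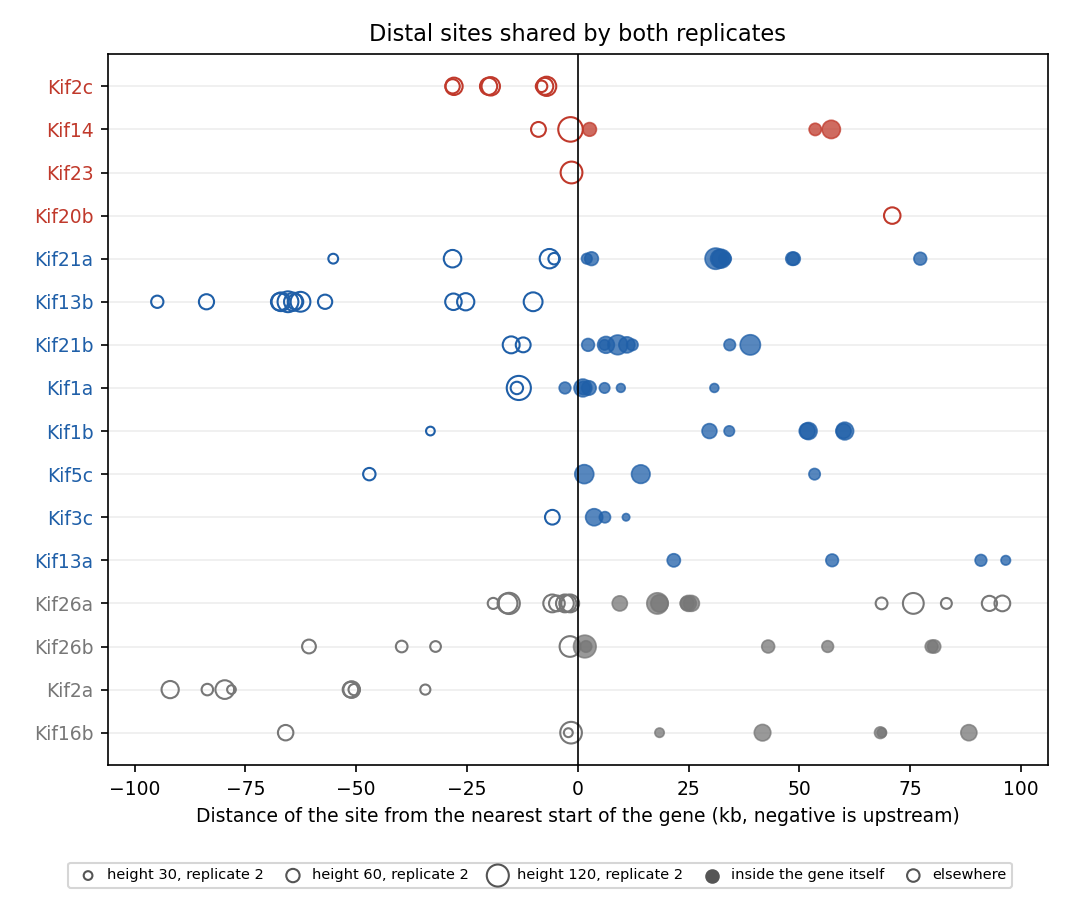
Position of each shared distal site in kb from the nearest start of its gene (negative is upstream), 1 row per gene, for the mitotic genes with any site and the other genes with at least 4, with circle area rising with the height in replicate 2, filled circles inside the gene and open circles elsewhere. Kif2c and Kif13b have upstream sites only, Kif21a and Kif21b mostly intronic ones, and Kif26a sites on both sides.

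Kif26a, which encodes an atypical kinesin known from enteric nervous system development, had the most distal sites of all kinesin genes, 19, and a density of 16.1 per 100 kb. Of these, 12 lay between genes, 6 in its own introns and 1 inside Aspg. The highest by mean percentile lay 75608 bp downstream with 83 in replicate 1 and 111 in replicate 2. An intronic site 17888 bp inside the gene had 70 and 114. A pair of sites beside Mir203 had 62 and 114, and 52 and 104. Kif26b had 10 sites over a territory of 358 kb, its strongest in an exon 1511 bp from the start with 82 and 124. Kif2a and Kif16b had 8 each. Kif12 and Kif28, which had no promoter peak, had 2 each, and the highest Kif12 site lay 9565 bp upstream with 82 and 105.

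The replicates differed in the number of distal peaks at some genes and not at others. Counting every distal peak of a library, Kif13b had 21 in replicate 1 and 52 in replicate 2, Kif5c 6 and 20, and Kif21b 12 and 23. Of the 52 Kif13b peaks in replicate 2, 39 were in no shared site and had a median height of 46, below the library median of 50. Kif26a, by contrast, had 30 in each and Kif21a 24 in each. The mitotic genes averaged 2 and 2.67 distal peaks per gene in the replicates, and the neuronal transport genes 8.23 and 13.8, so the order of the classes held in each. By the same count the mean per kinesin gene was 5.56 in replicate 1 and 7.87 in replicate 2, while sites seen in both averaged 3.54.

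Lists of genes linked to each class, called partners here, were described in the same way. The lists are not free of kinesins outside the symbol rule. Kifc1 and Cenpe were among the mitotic partners, and Kifc2 and Kifc3 among the transport partners. The mitotic list also held general proliferation genes such as Mki67, Top2a, Foxm1 and Mybl2. All 24 mitotic partner genes, such as spindle checkpoint and chromosomal passenger genes, had a shared promoter peak, with median heights of 115 in replicate 1 and 132 in replicate 2. The highest were Birc5, a passenger complex subunit, at 128 and 140, Cdk1, the kinase that starts mitosis, at 127 and 136, and Prc1, which bundles midzone microtubules, at 122 and 138. All 24 transport partner genes had one too, with medians of 99.5 and 129. They were kinesin light chains, dynein subunits, adaptors and others, among them the microtubule-associated Map1b, Map2, Mapt and Dcx. As 23 mitotic and 22 transport partners had a CpG ratio of at least 0.6, where 97.5% of all genes had a shared promoter peak, both counts stood near that background. The highest transport partners were the light chain genes Klc4 at 123 and 136 and Klc2 at 114 and 142, and the mitochondrial adaptor Trak2 at 121 and 137. Distal sites averaged 2.12 per mitotic partner and 5.42 per transport partner, with pooled densities of 3.91 and 6.07 per 100 kb. The density was 3.66 over all protein-coding genes and 4.37 over those with a CpG ratio of at least 0.6. The mitotic partners thus stood near background and did not share the low density of the mitotic kinesin genes, 1.91. The median numbers of sites per partner were closer, at 1 and 2.5. A few transport partners had many sites, with 28 at Map1b, 22 at Trak1 and 13 each at Mapt and Map2. The most at a mitotic partner was 9, at Aurkb.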

How the data were processed

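DNase-seq peaks and hotspots of 2 hindbrain replicates were used as the authors deposited them, called in each replicate separately from filtered alignments to mm10, per the text beside the files. For the aligner, the peak caller and the depth of reads, nothing is given in the sources used here. Peak heights in the deposited files are a signal of unstated scaling, whole numbers of at most 150 in these files. Each deposited hotspot has a −log10 false discovery rate (a q-value), with the strongest written as 100. Per the series title, a later record supersedes this one, and that record was not used here.

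Peaks outside the autosomes, X and Y were dropped, as were repeated entries (32 in replicate 1 and 60 in replicate 2). Peaks overlapping by at least 1 bp between replicates made 97657 shared sites. Starts came from protein-coding transcripts of the GENCODE M21 basic set, without readthrough transcripts. The tools were numpy 2.4.6, pandas 2.3.3, scipy 1.17.1 and matplotlib 3.10.9 under Python 3.11.15. Assignment of peaks to genes was tested on simulated peaks placed at known distances from the same starts. That checks the code and not the nearest-gene rule.

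The members, classes, partner and marker lists, and alternatives were chosen with earlier results of these data known. Values were to be given for all mitotic and neuronal transport members, members without a promoter peak, the 3 highest and 3 lowest promoters, the 5 members with most distal sites, neighbours within 1 kb, and the 3 highest partners of each list. Other cilium and other-role members, further neighbours, distal sites and partners with many distal sites were named after their values were seen. With 1 group of 2 libraries, no test was run. Alternatives changed the promoter window, start set, height minimum, overlap, distal limit, replicate, wide hotspots and the statistic.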

Additional observations from a re-analysis of the deposited data

How the results depend on the processing

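The count of 36 kinesin genes with a shared promoter peak ranged from 35 to 37 under the 2 other windows, 2 other start sets, a height minimum, a 75 bp overlap, either replicate alone and without Kif1bp, and was 26 without peaks inside hotspots of over 2 kb. That last choice kept 10 mitotic and 6 neuronal transport genes. With 1 start per gene the genes without a peak were Kif12, Kif13b and Kif28, so Kif14 gained a peak and Kif13b lost it. The median difference in promoter percentile, mitotic minus neuronal transport, ran from 1.77 to 2.87 with either replicate left out. It was -3.15 by class means, and 3.01 by class means without Kif2b, a choice made after seeing the data. Distal sites per kinesin gene, 3.54 as reported, ranged from 5.46 to 7.59 with either replicate left out, where overlapping peaks of the other were merged and each site counted, and fell to 2.03 with peaks above the median height alone. The difference in distal sites, -4.29, ranged from -10.6 to -6.31 with either replicate left out, was -2.08 with peaks above the median height alone and -3.08 with a 50 kb limit, and kept its sign under all 11 alternatives run. No paired analysis was possible because the samples form 1 group.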
